A study of Mus musculus with 10 samples.

Results

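Clec4d and 9 related C-type lectin receptors of myeloid cells were followed through 10 mouse lung transcriptomes. The genes were taken by symbol from the deposited table (Clec4d, Clec4e, Clec4n, Clec7a, Clec4a1, Clec4a2, Clec4a3, Clec5a, Clec12a and Clec10a), and all 10 of the 10 symbols were found among the 24394 named genes, on 19 transcript rows. Clec4d was picked by the study on the contrasts described here, so its differences are given as values without a test, and the other 9 genes were chosen with earlier results of these data known. The mice were female BALB/c, 8 weeks old, per the methods of the study. Saline mice (n = 3) received saline only. OVA mice (n = 3) were sensitized by intraperitoneal injection of 50 µg ovalbumin with an aluminum adjuvant on days 0 and 7 and were given 25 µg ovalbumin into the nose for 4 days from day 12, a protocol that provokes an allergic airway inflammation resembling asthma. Herb mice (n = 4) went through the same ovalbumin protocol and received by mouth 200 mg/kg of an ethanol extract of Descurainia sophia seeds from day 9 to day 15. OVA vs. Saline addresses the asthma model, Herb vs. OVA the extract given on top of it, and Herb vs. Saline the distance that was left to the controls. Both the OVA and the Herb mice carry the ovalbumin exposure, and the 3 comparisons share their libraries pairwise.

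C-type lectin receptors are membrane proteins with which macrophages, neutrophils, monocytes and dendritic cells bind sugars and lipids of fungi, bacteria and damaged cells. The activating members send their signal through the kinase Syk and the adaptor Card9, either with an own cytoplasmic motif, as Dectin-1 (Clec7a) does, or through a partner chain such as the Fc receptor gamma chain (Fcer1g) or DAP12 (Tyrobp), whereas the inhibitory members recruit phosphatases such as SHP-1 (Ptpn6). In the lung these receptors are known for the recognition of fungi and mycobacteria.

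On the mouse assembly GRCm38.p6, 9 of the 10 genes lie on chromosome 6 and Clec10a lies on chromosome 11 (70166623 to 70170836). Clec4a1, Clec4a3, Clec4a2, Clec4n, Clec4d and Clec4e form a cluster of 368 kb (122921848 to 123289871), in which Clec4d (123262107 to 123275268) and Clec4e (123281789 to 123289871) are neighbours on opposite strands with 6520 bases between them. The windows of 250 bases before the starts of Clec4d and Clec4e, taken from RefSeq on GRCm38.p6, are shown. These neighbours were chosen because both were low as deposited in the same libraries, those of OVA. This is not particular to the pair. Without overlap, 63.0% of all genes tested were lower in OVA than in Saline, and 49.6% were higher in Herb than in OVA. Capitals mark matches on either strand to GAGGAA, the core bound by the myeloid factor PU.1, and to TTGCNNAA, a short form of the C/EBP site. Each line is written 5′ to 3′ on the strand of its gene, plus for Clec4d (chr6:123261857-123262106) and minus for Clec4e (chr6:123289872-123290121).
Clec4d: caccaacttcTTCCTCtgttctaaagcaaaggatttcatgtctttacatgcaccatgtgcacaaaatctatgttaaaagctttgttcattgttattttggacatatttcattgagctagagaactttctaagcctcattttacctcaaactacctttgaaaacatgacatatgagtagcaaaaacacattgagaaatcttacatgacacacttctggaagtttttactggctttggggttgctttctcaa
Clec4e: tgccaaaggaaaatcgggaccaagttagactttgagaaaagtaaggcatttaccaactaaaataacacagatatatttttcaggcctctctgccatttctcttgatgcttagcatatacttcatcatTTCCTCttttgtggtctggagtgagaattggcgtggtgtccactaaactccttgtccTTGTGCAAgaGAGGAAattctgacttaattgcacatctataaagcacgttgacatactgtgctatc
Promoter windows were matched for 8 of the 10 genes. GAGGAA was present in 7 of these 8 (all but Clec4a2), compared with 22.2% of 21262 windows of the same length at protein-coding genes. A lectin was counted if any of its windows matched, whereas the share is per window. Clec4a3 and Clec7a had more than a single window, and not every window of Clec4a3 matched. TTGCNNAA was present in Clec4e and Clec12a, compared with 9.09% of all windows. TGANTCA, a loose form of the AP-1 site with any middle base, was present in Clec12a, compared with 6.13%. The letters in Clec12a were TGAATCA, with A where the AP-1 site has C or G. The window of Clec12a (129349994 to 129350243) lies inside the gene as annotated here (129349783 to 129365303), so it precedes a later start than the annotated one. In Clec4e the matches to TTGCNNAA and GAGGAA lie 66 and 56 bases before the start, and the match of Clec4d lies 240 bases before it. A match describes the letters of the window and not a bound factor.

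The values are FPKM, a level per length of transcript in which each library is scaled to its mapped fragments, summed over the rows of a gene. Estimated depth was 14900000 to 21400000 fragments in Saline, 20300000 to 29400000 in OVA and 14700000 to 21300000 in Herb. The messenger RNA share here is the share of estimated fragments on rows with a gene symbol, a messenger RNA accession and a known length. It was 32.95 to 33.31% in Saline, 11.91 to 14.89% in OVA and 19.34 to 25.79% in Herb. The 31605 of 66548 rows without a symbol are outside it, so it does not measure the messenger RNA content of the tissue. As FPKM divides up the fragments of a library, a lower share goes with a lower FPKM of most genes. The median log2 fold change over 11205 genes tested with limma was −0.75 in OVA vs. Saline, 0.48 in Herb vs. OVA and −0.27 in Herb vs. Saline. The differences described for gene sums of lectins above the minimum of 1 FPKM are therefore also given after rescaling. For this, every library was rescaled to a common 75th percentile of gene FPKM, which put these medians at 0.00, 0.03 and 0.03. For other genes rescaled values are given only where stated. A call is an adjusted p under 0.05 (limma on log2(FPKM + 1), Benjamini-Hochberg over all genes). In whole lung, fewer cells of a type and less RNA per cell cannot be told apart.

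The 10 lectins were expressed at low to moderate levels, and their order differed between the groups. By mean FPKM, Clec4n was the most abundant in Saline (8.60 ± 2.50, SD, n = 3), followed by Clec4a3 (4.66 ± 2.13) and Clec4d (4.53 ± 1.58), which do not differ beyond their spread. In OVA the order was Clec7a (2.98 ± 2.01, SD, n = 3), Clec4a3 (2.45 ± 1.83) and Clec4n (2.41 ± 1.42), again within their spread, and Clec4d had rank 7 with 0.864 ± 0.270. In Herb it was Clec7a (8.92 ± 1.67, SD, n = 4), Clec4a3 (6.79 ± 1.31), Clec4n (5.98 ± 0.915) and Clec4d (3.91 ± 1.72). Clec5a had the lowest mean in OVA and Herb and Clec10a in Saline, where the difference between these 2 was within their spread. The sum of the 10 genes was 21.8 to 29.9 FPKM in Saline, 7.25 to 16.2 in OVA and 33.8 to 36.2 in Herb as deposited, so that the 3 groups did not overlap. After rescaling it was 15.8 to 22.4, 12.3 to 23.1 and 30.6 to 36.2, and Saline and OVA overlapped.

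**Figure D1:**
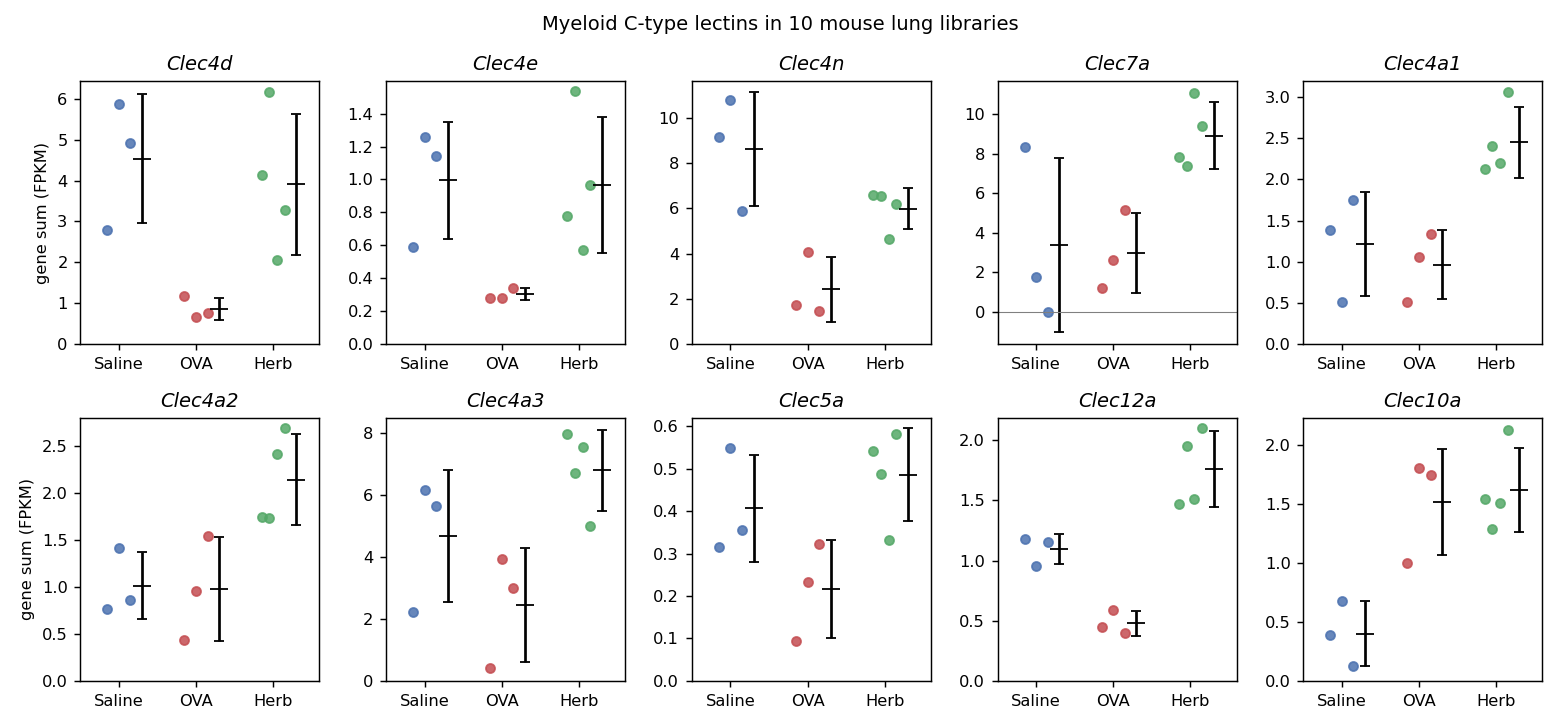
Gene sums of the 10 lectins in FPKM (y axes, a scale of its own for each gene) in Saline (n = 3), OVA (n = 3) and Herb (n = 4); points are libraries, and bars are the mean ± SD. As deposited, the OVA points of Clec4d, Clec4e, Clec4n and Clec12a lie under all Saline points, whereas those of Clec10a lie above them. After rescaling, which is not drawn, OVA and Saline overlap in each of these genes but Clec10a.

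Clec4d, also named MCL or Dectin-3, is a receptor for mycobacterial glycolipid that pairs with the Fc receptor gamma chain. Its level was 2.79, 5.88 and 4.93 FPKM in Saline, 1.17, 0.667 and 0.753 in OVA and 4.15, 6.15, 2.07 and 3.28 in Herb. As deposited, every OVA library was under every Saline and every Herb library, whereas Saline and Herb overlapped. After rescaling, OVA 1 lay slightly above Saline 1, so that OVA overlapped with Saline and stayed under Herb. The mean in OVA was 0.191 times that in Saline, and the mean in Herb was 4.53 times that in OVA. On the log2(FPKM + 1) scale the differences were −1.54 ± 0.315 (SE) in OVA vs. Saline, 1.34 ± 0.295 in Herb vs. OVA and −0.195 ± 0.295 in Herb vs. Saline, and after rescaling they were −0.88 ± 0.30, 0.97 ± 0.28 and 0.09 ± 0.28. In estimated fragments, the gene rested on 20 to 46 in the OVA libraries, 55 to 166 in Saline and 58 to 120 in Herb. The row NM_010819 was listed in all libraries, from 0.282 to 0.753 FPKM in OVA, 1.74 to 4.93 in Saline and 2.07 to 3.51 in Herb. The row NM_001163161 was listed at 0 in 4 libraries, namely Saline 3, OVA 3, Herb 3 and Herb 4, and up to 2.65 FPKM in Herb 2. The order of the groups was thus carried by the first row.

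Clec4e (Mincle), the partner of Clec4d on the same chromosomal segment and a receptor for the same glycolipid, was present at 0.591, 1.26 and 1.14 FPKM in Saline, 0.280, 0.282 and 0.344 in OVA and 0.781, 1.53, 0.573 and 0.969 in Herb. As in Clec4d, the OVA libraries lay below all others as deposited. After rescaling to the 75th percentile, OVA overlapped with Saline and stayed below Herb. No rescaled difference is given, because the rescaled fit was run only with the minimum level. The mean of Clec4e was under the minimum of 1 FPKM used for the test. In the fit of all 20819 genes without this minimum the difference was −0.60 ± 0.19 (SE) in OVA vs. Saline (limma, adjusted p = 0.0355) and 0.57 ± 0.18 in Herb vs. OVA (limma, adjusted p = 0.0515), where 36.5% and 21.3% of all genes were called. Within a library the ratio of Clec4d to Clec4e was 4.32 to 4.73 in Saline and 3.39 to 5.31 in Herb. It was 4.19, 2.36 and 2.19 in the OVA libraries, all under the Saline range.

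Clec4n (Dectin-2), a receptor for fungal mannans that also signals through the Fc receptor gamma chain, was present at 9.15, 10.8 and 5.87 FPKM in Saline, 1.72, 4.05 and 1.48 in OVA and 6.57, 6.53, 4.63 and 6.19 in Herb. OVA again lay below both other groups as deposited, whereas after rescaling it overlapped with both. In OVA vs. Saline Clec4n fell by 1.53 in log2 units (SE 0.29, adjusted p = 0.00162, limma) and rose in Herb vs. OVA (1.10 ± 0.27, adjusted p = 0.0132). After rescaling, the values were −0.73 ± 0.27 (adjusted p = 0.0593) and 0.625 ± 0.255 (adjusted p = 0.159), so neither remained under the threshold. Of its rows, NM_020001 made up the largest share in Saline, with 9.15, 8.81 and 3.87 FPKM, and it was lower in OVA, with 0.890, 2.98 and 1.07. NM_001190321 differed by −0.25 ± 0.47 between OVA and Saline (limma over single rows, adjusted p = 0.682). In Herb 4 this row held 4.53 FPKM and NM_020001 only 0.655, unlike the other Herb libraries, where NM_020001 was listed at 2.42 to 5.42.

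Clec7a (Dectin-1), the receptor for fungal beta-glucan, was present at 8.35, 1.77 and 0 FPKM in Saline, 1.19, 2.605 and 5.15 in OVA and 7.82, 7.38, 11.1 and 9.39 in Herb. The Saline libraries spanned the range of OVA and reached into that of Herb. All values came from a single row, NM_001309637, as the other row was listed at 0 throughout, and since even the housekeeping gene Gapdh stands at 0 in 9 of the libraries, the 0 of Saline 3 may not be a measured absence. The Herb libraries lay above the OVA libraries, but none of the comparisons passed the test (limma, adjusted p = 0.726 in OVA vs. Saline, 0.1 in Herb vs. OVA and 0.0780 in Herb vs. Saline). The log2 differences were 0.30 ± 0.69, 1.43 ± 0.65 and 1.73 ± 0.65 (SE), and after rescaling they were 0.94 ± 0.64, 0.95 ± 0.60 and 1.89 ± 0.60 (adjusted p = 0.263, 0.337 and 0.0656). Clec7a was called in Herb vs. OVA with only these 2 groups in the fit (1.43 ± 0.34, limma, adjusted p = 0.0239), without Saline 1 (adjusted p = 0.0288) and without Saline 3 (adjusted p = 0.0385).

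Clec5a (MDL-1), which signals through DAP12, was the faintest of the activating receptors, with 0.315, 0.550 and 0.355 FPKM in Saline, 0.0943, 0.234 and 0.323 in OVA and 0.542, 0.489, 0.333 and 0.581 in Herb. It rested on 2 to 10 estimated fragments per library and was under the minimum of the test. Without that minimum the differences were −0.21 ± 0.10 in OVA vs. Saline (limma, adjusted p = 0.135) and 0.29 ± 0.09 in Herb vs. OVA (adjusted p = 0.0531), and neither was called.

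Clec12a (MICL), an inhibitory receptor that binds uric acid crystals of dead cells, was present at 1.18, 0.953 and 1.15 FPKM in Saline, 0.449, 0.591 and 0.395 in OVA and 1.47, 1.95, 1.51 and 2.10 in Herb. As deposited, the 3 groups did not overlap, with OVA lowest and Herb highest. After rescaling, OVA and Saline overlapped. In OVA vs. Saline Clec12a fell by 0.50 in log2 units (SE 0.14, adjusted p = 0.0126, limma) and rose in Herb vs. OVA (0.895 ± 0.13, adjusted p = 0.00716). After rescaling the first difference was −0.07 ± 0.13 (adjusted p = 0.687), it was 0.05 with the messenger RNA share and 0.07 with pan-leucocyte genes as the scale, and the second was 0.64 ± 0.125 (adjusted p = 0.0594). In Herb vs. Saline the difference was 0.39 ± 0.13 as deposited (adjusted p = 0.0578) and 0.56 ± 0.125 after rescaling (adjusted p = 0.0239). Clec12a passed the minimum of 1 FPKM through the Herb libraries. In the fit without a minimum the adjusted p was 0.0116 in Herb vs. OVA and 0.0704 in Herb vs. Saline (limma). There 21.3% and 12.5% of all genes were called. The rescaled fit was run only with the minimum.

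Clec4a2 (DCIR), the inhibitory receptor of dendritic cells, and its relatives Clec4a1 and Clec4a3 had their highest means in Herb. Clec4a1 was present at 1.38, 0.518 and 1.76 FPKM in Saline, 0.514, 1.05 and 1.33 in OVA and 2.13, 2.41, 2.20 and 3.07 in Herb. Clec4a2 was present at 0.762, 1.42 and 0.861 FPKM in Saline, 0.430, 0.954 and 1.54 in OVA and 1.74, 1.73, 2.41 and 2.68 in Herb. For both genes Saline and OVA overlapped, and all Herb libraries lay above all others. Neither differed in OVA vs. Saline by the test (−0.15 ± 0.245, adjusted p = 0.610 for Clec4a1 and −0.05 ± 0.23, adjusted p = 0.858 for Clec4a2, limma), and both signs turned under rescaling. Both rose in Herb vs. OVA (0.83 ± 0.23, adjusted p = 0.0189 and 0.695 ± 0.22, adjusted p = 0.0298). After rescaling these differences were 0.485 ± 0.21 (adjusted p = 0.185) and 0.37 ± 0.24 (adjusted p = 0.349), and without the minimum, which Clec4a2 passed through the Herb libraries, the adjusted p was 0.0371 and 0.0548. Clec4a3 was present at 2.22, 6.14 and 5.63 FPKM in Saline, 0.408, 3.93 and 3.01 in OVA and 7.95, 6.69, 7.53 and 4.995 in Herb. Saline and OVA overlapped in Clec4a3, and it rose in Herb vs. OVA (1.35 ± 0.44, adjusted p = 0.0336) without a call in OVA vs. Saline (−0.82 ± 0.47, adjusted p = 0.158). After rescaling the values were 0.94 ± 0.46 (adjusted p = 0.222) and −0.12 ± 0.49 (adjusted p = 0.860), and without the minimum Clec4a3 was not called in Herb vs. OVA (adjusted p = 0.0622). OVA 1 was the lowest library for all 3 genes.

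Single rows of these relatives were less even than the gene sums. The row NM_153197 of Clec4a3 had 2.22, 5.16 and 5.63 FPKM in Saline, 0.408, 1.38 and 1.25 in OVA and 7.95, 6.69, 7.16 and 4.995 in Herb. This row fell in OVA vs. Saline by 1.37 in log2 units (SE 0.31, adjusted p = 0.00502, limma over single rows) and rose in Herb vs. OVA (1.96 ± 0.29, adjusted p = 0.0103), where 53.0% and 33.2% of all single rows were called. The other row of Clec4a3, NM_001204241, was listed at 2.55 and 1.75 FPKM in OVA 2 and OVA 3 and at 0.974 and 0.369 in Saline 2 and Herb 3, and at 0 elsewhere. In Clec4a2 the row NM_011999 was listed at 0 in the 3 OVA libraries and in Saline 1, at 1.41 and 0.843 FPKM in the other Saline libraries and at 0.709, 0.265, 2.17 and 2.10 in Herb. In the OVA libraries Clec4a2 was thus listed only as NM_001170333. Whether the fragments were divided correctly between rows of a gene was not tested.

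**Figure D2:**
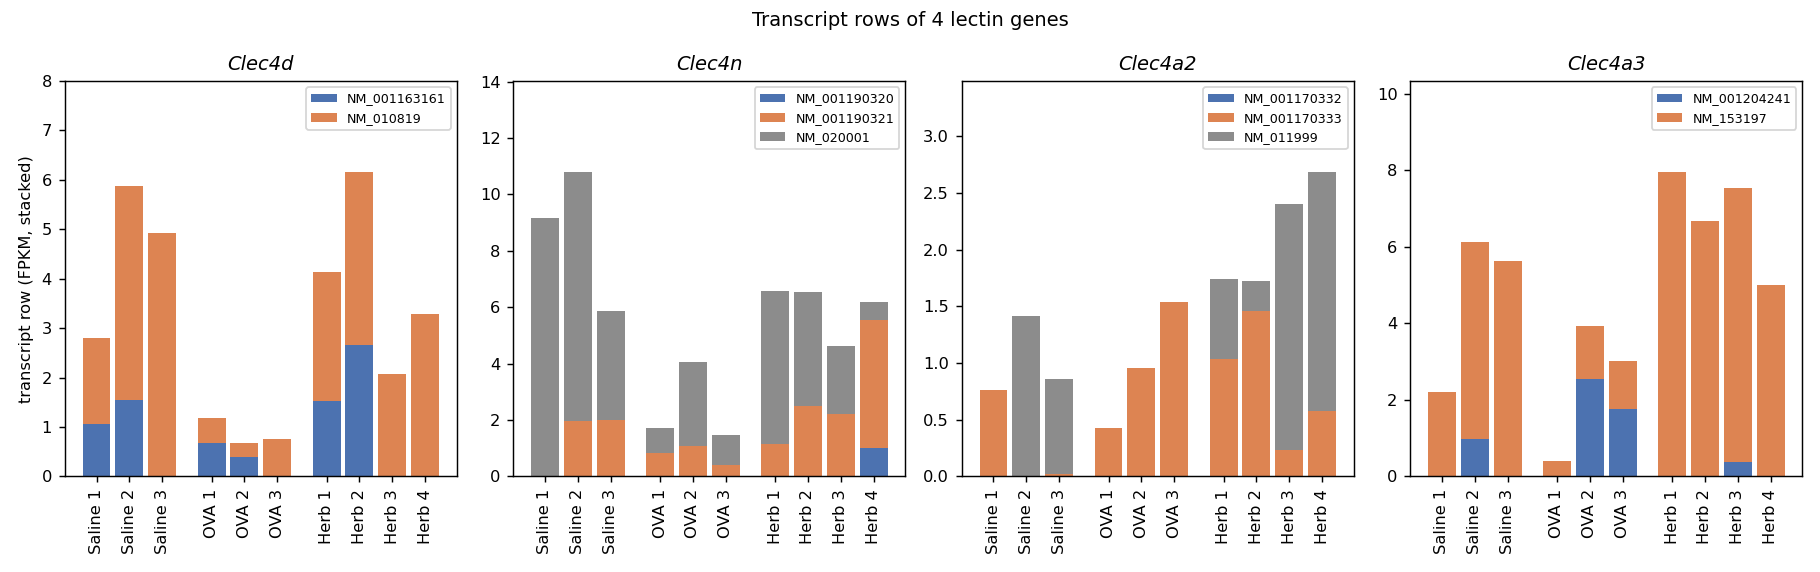
FPKM of the transcript rows of Clec4d, Clec4n, Clec4a2 and Clec4a3 (y axes), stacked to the gene sum in each library. NM_010819 of Clec4d is present in all 10 libraries, whereas NM_011999 of Clec4a2 is listed at 0 in the 3 OVA libraries and NM_001204241 of Clec4a3 is highest in OVA 2 and OVA 3.

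Clec10a (MGL1), a receptor for galactose-type sugars on macrophages and dendritic cells, went the other way. Its level was 0.391, 0.676 and 0.127 FPKM in Saline, 0.997, 1.80 and 1.75 in OVA and 1.54, 1.29, 1.51 and 2.13 in Herb. All OVA and Herb libraries lay above all Saline libraries, and OVA and Herb overlapped. The mean in OVA was 3.81 times and the mean in Herb 4.06 times that in Saline. Clec10a rose in OVA vs. Saline (0.85 ± 0.21, limma, adjusted p = 0.00588) and in Herb vs. Saline (0.91 ± 0.19, adjusted p = 0.0135), and after rescaling the differences were 1.31 ± 0.19 (adjusted p = 0.00148) and 0.98 ± 0.18 (adjusted p = 0.0163). As it passed the minimum of 1 FPKM through the OVA and Herb libraries, the fit without a minimum is given too, and it also called the gene (adjusted p = 0.00962 and 0.0211, where 36.5% and 12.5% of all genes were called). Herb and OVA differed by 0.06 ± 0.19 as deposited (adjusted p = 0.808) and by −0.34 ± 0.18 after rescaling (adjusted p = 0.253). The counts behind it were small, with 4 to 21 estimated fragments in Saline, 43 to 60 in OVA and 28 to 61 in Herb. Of its windows of 76 bases, the read length, 4.84% also occur in the neighbouring paralogue Mgl2, so that some reads could belong to either gene. Such windows made up 3.18% in Clec4a2 and were absent in the other 8 lectins.

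Among the 9 genes other than Clec4d, 7 were tested, and in OVA vs. Saline 3 were called, namely Clec4n and Clec12a as lower and Clec10a as higher. Over all genes tested, 61.2% were called in this comparison, with 57.9% lower and 3.28% higher, so the 2 lower calls are below the general share. Of the 7 tested relatives, Clec4n and Clec12a were lower in OVA than in Saline without overlap as deposited, and Clec10a was higher. Over all genes tested this held for 63.0% and 4.68%. Without the minimum 4 of the 9 were called (Clec4n, Clec12a, Clec4e and Clec10a), while 36.5% of all genes were. After rescaling, Clec10a was the only one called, while 41.7% of all genes were. As Clec10a passed the minimum through its OVA and Herb libraries, these counts are given as a description.

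In Herb vs. OVA, 5 of the 7 tested relatives were called, all higher (Clec4n, Clec4a1, Clec4a2, Clec4a3 and Clec12a), while 44.5% of all genes were called, 44.0% as higher and 0.446% as lower. Without the minimum 3 were called (Clec4n, Clec4a1 and Clec12a). As deposited, Herb and OVA were separate in 6 of the 7, all but Clec10a and all higher in Herb. Over all genes tested, 49.6% were separate as higher and 0.651% as lower. As some of the 7 passed the minimum only through their Herb libraries, these counts are given as a description. After rescaling none of the 7 was called by limma, 3 had an unadjusted p under 0.05, and 0.725% of all genes were called. The calls also depended on OVA 1. Without this library only Clec12a was called as deposited (0.88, limma, adjusted p = 0.0235, with 28.5% of all genes called), and without Herb 3 the calls were 3.

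In Herb vs. Saline 1 of the 7 was called, Clec10a, while 26.1% of all genes were called, 3.32% as higher and 22.7% as lower. Herb and Saline were separate in Clec4a1, Clec4a2, Clec12a and Clec10a, all higher in Herb, compared with 6.94% of all genes in that direction and 36.6% as lower. Without the minimum Clec10a was again the only lectin called, while 12.5% of all genes were called. After rescaling Clec10a, Clec12a and Clec4a1 were called as higher, while 14.6% of all genes were called. Clec12a passed the minimum through its Herb libraries and Clec10a through those of OVA and Herb, so these counts are a description. The value for Clec4a1 was then 0.84 ± 0.21 (limma, adjusted p = 0.0350), compared with 0.67 ± 0.23 as deposited (adjusted p = 0.0575).

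**Figure D3:**
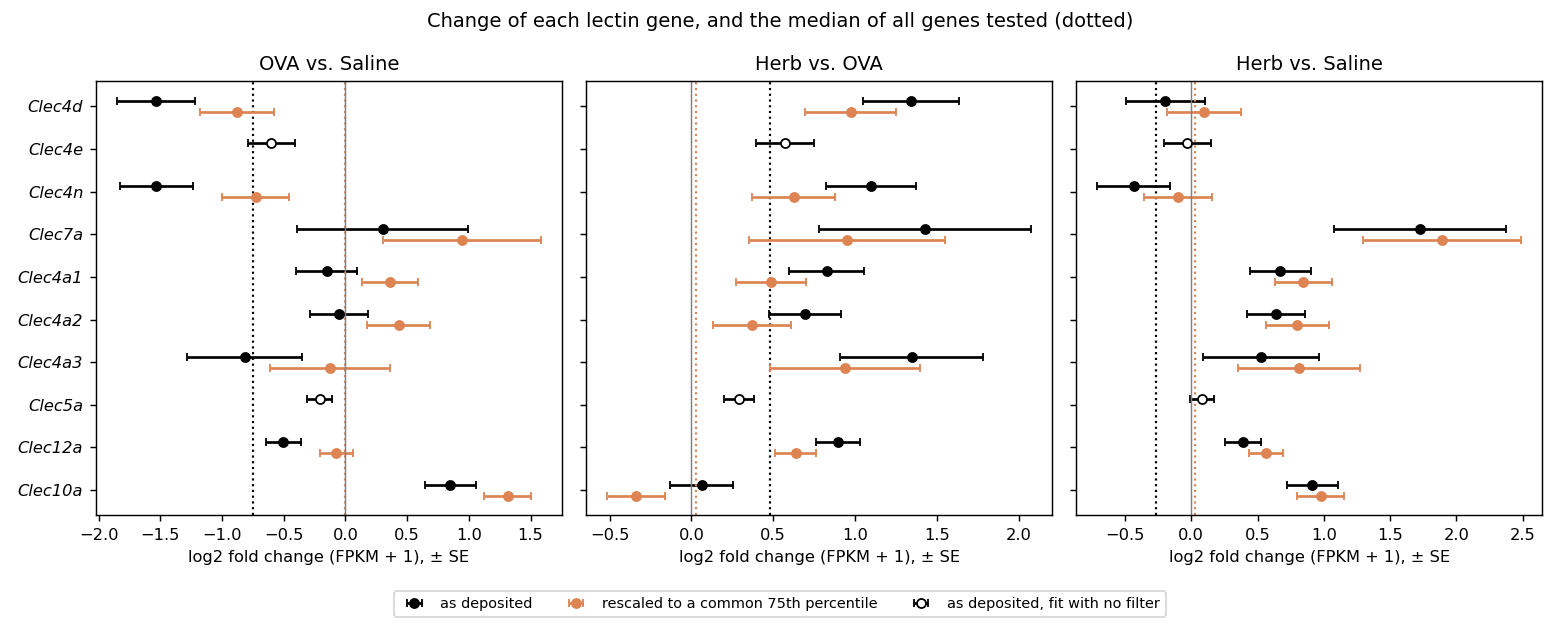
Log2 fold changes of the 10 lectins on the FPKM + 1 scale with SE (x axes) in the 3 comparisons, as deposited (black; open for the 2 genes under the minimum, from the fit without one) and after rescaling to a common 75th percentile (orange). Dotted lines are the medians of all genes tested, −0.75, 0.48 and −0.27 as deposited; Clec10a is on the higher side of 0 in OVA vs. Saline under both.

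The make-up of the lectin signal differed between Saline and the ovalbumin groups. Clec10a held 0.58 to 2.26% of the summed FPKM of the 10 genes in Saline, 10.86 to 13.75% in OVA and 3.56 to 6.01% in Herb, with no overlap between the groups. Clec4d held 10.3, 19.63 and 22.58% in Saline, 16.16, 4.13 and 4.69% in OVA and 6.11 to 17.02% in Herb. OVA 1 therefore overlapped with Saline in the share of Clec4d, although its level in FPKM was lower. Clec4n was the leading gene in the 3 Saline libraries, OVA 1 and OVA 2, Clec7a in OVA 3, Herb 2, Herb 3 and Herb 4, and Clec4a3 in Herb 1. Shares and ratios within a library do not depend on the scaling between libraries.

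**Figure D4:**
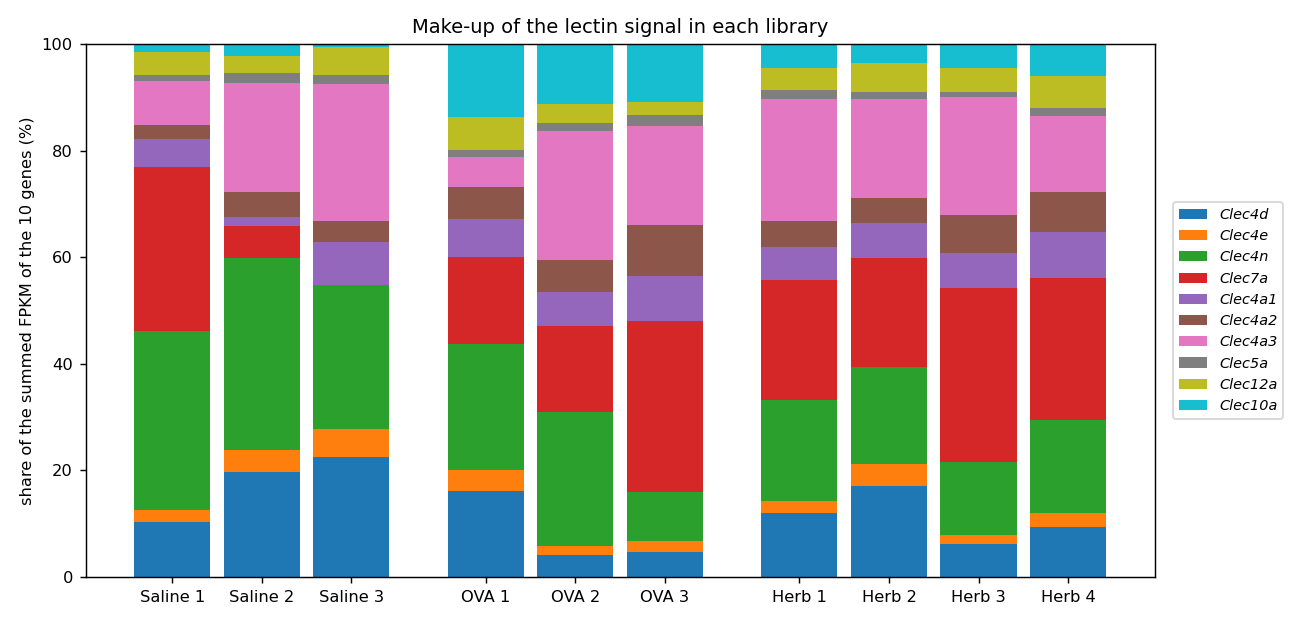
Share of each lectin in the summed FPKM of the 10 genes (y axis, %) in each library. The share of Clec10a, at the top of the bars, is 0.58 to 2.26% in Saline, 10.86 to 13.75% in OVA and 3.56 to 6.01% in Herb.

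The partner chains changed in the same comparisons. Fcer1g was present at 10.4, 11.6 and 8.001 FPKM in Saline, 2.23, 2.77 and 3.39 in OVA and 4.95 to 10.3 in Herb. It fell in OVA vs. Saline by 1.53 (SE 0.24, limma, adjusted p = 0.000605) and rose in Herb vs. OVA (1.17 ± 0.23, adjusted p = 0.00727). Tyrobp fell by 1.68 (SE 0.30, adjusted p = 0.00119) and rose by 1.204 ± 0.28 (adjusted p = 0.0109). After rescaling, Fcer1g was still lower in OVA vs. Saline (−0.68 ± 0.20, adjusted p = 0.0249), and Tyrobp differed by −0.71 ± 0.26 (adjusted p = 0.0536). The ratio of Clec4d to Tyrobp was 0.0988, 0.115 and 0.135 in Saline, 0.140, 0.0414 and 0.0758 in OVA and 0.109 to 0.190 in Herb, so OVA 1 lay above the Saline libraries and OVA 2 and OVA 3 below them. The ratio of Clec10a to Tyrobp was 0.00348 to 0.0138 in Saline, 0.112 to 0.176 in OVA and 0.0398 to 0.0804 in Herb, and the 3 groups did not overlap. These ratios were chosen after the values had been seen and are given without a test.

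**Figure D5:**
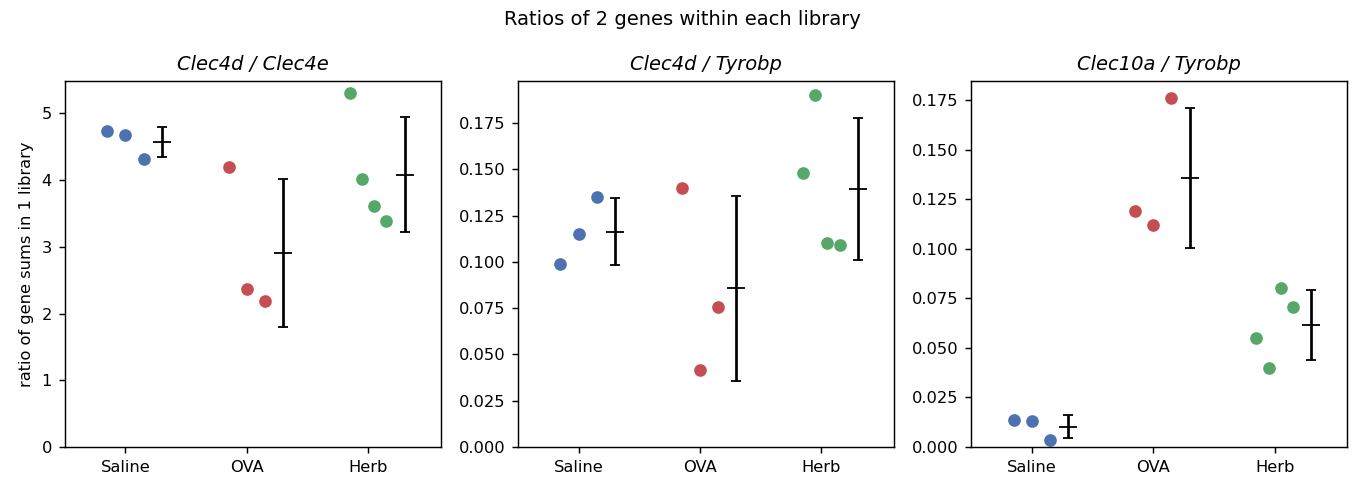
Ratios of gene sums within each library (y axes) for Clec4d to Clec4e, Clec4d to Tyrobp and Clec10a to Tyrobp in Saline (n = 3), OVA (n = 3) and Herb (n = 4), with mean ± SD. Clec10a to Tyrobp is 0.00348 to 0.0138 in Saline and 0.112 to 0.176 in OVA, whereas Clec4d to Tyrobp overlaps between these groups.

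Downstream of the receptors, Syk did not pass the test in OVA vs. Saline (0.645 ± 0.40, limma, adjusted p = 0.194) or Herb vs. OVA (0.01 ± 0.38, adjusted p = 0.986), but it was higher in OVA than in Saline after rescaling (1.28 ± 0.43, adjusted p = 0.0422). Card9 was present at 1.28, 0.835 and 0.234 FPKM in Saline and 2.32, 3.21 and 3.71 in OVA, and it rose (1.22 ± 0.36, limma, adjusted p = 0.0157). Over all genes, 3.28% were called higher in this comparison. With a mean of 0.784 FPKM in Saline, Card9 passed the minimum through its OVA and Herb libraries, so this call is a description. In Herb Card9 was listed at 1.98, 0.249, 2.17 and 1.13, overlapping with Saline, and the difference from OVA was −0.85 ± 0.34 (adjusted p = 0.0676). Ptpn6, the phosphatase of the inhibitory receptors, fell in OVA vs. Saline by 0.50 as deposited (SE 0.18, adjusted p = 0.0383), and its sign turned under rescaling (0.40 ± 0.165, adjusted p = 0.0836). Of a list of 20 signalling genes, all tested, 2 were higher (Card9 and the kinase gene Prkcd) and 11 lower in OVA vs. Saline, with Bcl10, the partner of Card9, and the kinase gene Lyn having the smallest adjusted p (−1.425 ± 0.18, adjusted p = 0.000213 and −1.625 ± 0.225, adjusted p = 0.000302), while 57.9% of all genes were lower. After rescaling, of 19 genes tested 8 were higher and 3 lower, so the direction of this list depended on the scaling. In Herb vs. OVA 7 were higher and 0 lower, with Bcl10 (0.97 ± 0.17, adjusted p = 0.00716) and Fcer1g leading, while 44.0% of all genes were higher, and 0 were called after rescaling. In Herb vs. Saline Prkcd and Vav1 were higher and Lyn was lower, beside 3.32% and 22.7% of all genes. After rescaling 3 were higher and 0 lower, with Prkcd (limma, adjusted p = 0.0161) and Vav1 (adjusted p = 0.0235) among the 3. Lyn was then not called (adjusted p = 0.223).

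Of 11 cytokines and chemokines that these receptors can induce, only 3 passed the minimum level. Ccl3 was higher in OVA than in Saline (0.62 ± 0.21, limma, adjusted p = 0.0311) and in Herb than in Saline (0.66 ± 0.20, adjusted p = 0.0397). Over all genes, 3.28% and 3.32% were called higher in these comparisons. The mean of Ccl3 was 0.518 FPKM in Saline, 1.36 in OVA and 1.41 in Herb. It thus passed the minimum through its OVA and Herb libraries, and no fit without the minimum is given for it, so these calls are a description. Il1b was lower in OVA than in Saline (−0.785 ± 0.24, adjusted p = 0.0194) and higher in Herb than in OVA (0.79 ± 0.23, adjusted p = 0.0221), but after rescaling these differences were 0.04 (adjusted p = 0.906) and 0.28 ± 0.20 (adjusted p = 0.398). Among 26 other C-type lectins, 13 were tested, of which 8 were lower and 0 higher in OVA vs. Saline, led by the scavenger receptor Colec12 (−2.36 ± 0.29, adjusted p = 0.000196) and the endothelial Clec14a (−2.61 ± 0.34, adjusted p = 0.000237), beside 57.9% of all genes. In Herb vs. OVA 7 of the 13 were higher, beside 44.0% of all genes, again with Colec12 (1.32 ± 0.27, adjusted p = 0.00788) and Clec14a (1.28 ± 0.32, adjusted p = 0.0130) first, and in Herb vs. Saline 5 were lower, beside 22.7%, first Clec2d (−1.54 ± 0.30, adjusted p = 0.0109) and Cd302 (−1.415 ± 0.31, adjusted p = 0.0152). After rescaling, 1 of the 13 was higher and 5 were lower in OVA vs. Saline, 0 were higher in Herb vs. OVA (Colec12 adjusted p = 0.0748, Clec14a 0.173) and 2 were lower in Herb vs. Saline. Mgl2, the paralogue of Clec10a, was present at 0.360 to 0.727 FPKM in Saline, 0.935 to 3.004 in OVA and 0 to 3.12 in Herb.

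Markers of the cells that carry these receptors are given beside the lectins, and 57.9% of all genes were lower in OVA vs. Saline. Summed over 8 genes, neutrophil markers were 42.9 to 492 FPKM in Saline, 9.89 to 38.6 in OVA and 43.4 to 139 in Herb. As deposited, all OVA sums lay under the others, as in Clec4d and Clec4e, and the dendritic cell and lymphocyte sums below shared this. These sums are not rescaled, and their order depends on the scaling. At a common 75th percentile the neutrophil sums of OVA and Saline overlap, and the dendritic cell sums of OVA lie above those of Saline. The monocyte and pan-leucocyte sums of OVA lay under those of Saline too as deposited, but overlapped with Herb. A large part of the neutrophil sum was S100a9 in Saline 2 (416 FPKM), Saline 3 (132) and Herb 2 (60.65). Elsewhere S100a9 did not exceed 0.952. Of the 8 genes, 4 were lower in OVA vs. Saline, with S100a8 first (−2.78 ± 0.69, limma, adjusted p = 0.00657). Monocyte markers were 20.7 to 35.5 FPKM in Saline, 7.67 to 18.2 in OVA and 16.3 to 41.2 in Herb, with 2 of 5 tested lower in OVA. Macrophage markers were 110 to 233 FPKM in Saline, 91.7 to 300.1 in OVA and 372 to 653 in Herb, with 2 of 6 tested lower in OVA (Ear2 and Cd68). Most of this sum was Chil3, and without it the other 7 genes summed to 39.1 to 69.2, 22.0 to 46.5 and 51.8 to 69.6 FPKM. In Herb vs. Saline Chil3 (2.18 ± 0.45, adjusted p = 0.0128) and Itgax (1.32 ± 0.37, adjusted p = 0.0318) were higher, beside 3.32% of all genes. Cd68 (−0.95 ± 0.27, adjusted p = 0.0317) and Ear2 (−1.17 ± 0.33, adjusted p = 0.0326) were lower, beside 22.7%. After rescaling Chil3 (limma, adjusted p = 0.0147) and Itgax (adjusted p = 0.0267) were still called. Cd68 (−0.60 ± 0.265, adjusted p = 0.151) and Ear2 (−0.82 ± 0.35, adjusted p = 0.137) were not. Dendritic cell markers were 6.53 to 8.81, 4.79 to 6.52 and 8.42 to 9.73 FPKM, with 1 of 2 tested lower in OVA, and 4 of 5 pan-leucocyte genes were lower in OVA, with a summed level of 67.5 to 84.7, 28.6 to 48.7 and 42.5 to 76.8. Eosinophil markers were 3.19 to 4.64, 1.77 to 3.38 and 2.01 to 4.70 FPKM, with Siglecf, the 1 gene tested, lower in OVA. The eosinophil granule gene Prg2, under the minimum, was listed at 0 in the Saline libraries and at 1.25, 1.65 and 0.877 FPKM in OVA, and Ccr3 at 0.0409 to 0.103 and 0.105 to 0.303. Lymphocyte markers were 11.6 to 18.9, 1.90 to 3.61 and 4.64 to 13.7, with all 4 tested lower in OVA. No marker list had a gene at 0 in all libraries, but Csf1r was listed at 0 in every OVA and Herb library and Il1r2 in every OVA library. As for Clec7a, a 0 of a marker may not be a measured absence. After rescaling, the calls in OVA vs. Saline were 1 lower of 7 neutrophil markers, 0 of 5 monocyte markers, 2 higher and 1 lower of 6 macrophage markers and 1 higher of 2 dendritic cell markers. The part of any of these cell types in the lectin values was not tested. After the libraries had been rescaled to pan-leucocyte genes, Clec10a was called in OVA vs. Saline, where 26.9% of all genes were called, and Clec4n and Clec12a were not. This fit was run only with the minimum level, which Clec10a passed through its OVA and Herb libraries, so its call is a description.

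The genes whose pattern over the 10 libraries was most like that of Clec4d after rescaling were Il6ra, a subunit of the interleukin-6 receptor (Pearson r = 0.937), Stx19 (0.929), Nadk2 (0.906), Lrrc28 (0.897), Foxk2 (0.897), Ank (0.894), Il1f9, which encodes interleukin-36 gamma (0.893), Hacd3 (0.889), Tnrc6b (0.877) and Mkks (0.877). Il6ra was present at 11.4 to 14.3 FPKM in Saline, 3.46 to 3.76 in OVA and 8.20 to 12.9 in Herb. The points share the libraries and their composition, and the median r over 11204 genes was 0.05 after rescaling and 0.681 as deposited. Of the lectins, Clec4n (r = 0.53) and Clec12a (r = 0.483) ranked 2218 and 2631 in likeness to Clec4d, and Clec10a (r = −0.518) ranked 9482. The rank of Clec4e is not given, because it was under the minimum level.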

How the data were processed

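RNA-seq of lung tissue was used from 3 Saline, 3 OVA and 4 Herb libraries, grouped by their labels. The authors trimmed the reads of 76 bases (paired ends), aligned them to mm10 with HISAT2 and quantified transcripts, and they deposited 1 table of FPKM with 66548 rows, of which 34943 carry a gene symbol. The submitters' processing notes name cutadapt 1.10, StringTie 1.3.3b and edgeR 3.16.5. The labels differ from the study's methods on the RNA extraction and library kit, so the strandedness of the libraries is not taken as given. The table holds no counts, so no count test was run.

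Rows of a symbol were summed. The 11205 genes with a mean of at least 1 FPKM entered a limma fit (version 3.58.1, R 4.3.3, eBayes with a trend on level) of log2(FPKM + 1) over all 10 libraries, with a mean per group and Benjamini-Hochberg adjustment. The pseudocount of 1 makes differences of low genes look smaller than they are. The p-values measure the spread between these libraries. Alternatives were a pseudocount of 0.1, no minimum level, 4 scalings, no trend, the replicate number as a block, fits of 2 groups, single rows, the screen of the study and leaving out each library.

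Depth was estimated from FPKM under 0.1 times transcript length, whose steps give the value of 1 fragment, with GENCODE vM21 lengths for 95.0% of the named rows. Numbers of fragments are therefore approximate and cover counting error only. Positions and promoter windows are from RefSeq GRCm38.p6, the assembly of mm10. Summaries and plots were made in Python 3.11.15 (numpy 2.4.6, pandas 2.3.3, matplotlib 3.10.9).

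The lectin genes, the gene lists and the tests were chosen with earlier results of these data known. Named are all lectins, 5 signalling genes (Fcer1g, Tyrobp, Syk, Card9 and Ptpn6), per list and comparison up to 2 genes with the smallest adjusted p in each direction where their values are shown, and the 10 genes most correlated with Clec4d. Mgl2, Prg2 and Ccr3 were named in addition after their values were seen, and the macrophage sum without Chil3 was added then too.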

Additional observations from a re-analysis of the deposited data

How the results depend on the processing

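In OVA vs. Saline 3 of the 9 lectins other than Clec4d were called as deposited. The count was 1 under each of the 4 scalings (75th percentile, quantile normalization, messenger RNA share, pan-leucocyte genes), 1 with only the 2 groups in the fit, where Clec4a2, Clec12a and Clec10a were under the minimum level, and 1 by the screen of the study, read as a log2 fold change of 1 or more in size with an unadjusted p under 0.05. It was 3 whichever single library was left out.

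In Herb vs. OVA the count was 5 as deposited, 3 without a minimum level, 3 over single rows, 2 by the screen of the study and 0 under each of the 4 scalings (limma, of 7 tested, with 2 or 3 at an unadjusted p under 0.05). Leaving out 1 library gave 1 (without OVA 1) to 6. In Herb vs. Saline the count was 1 as deposited, 3 at the 75th percentile, 4 with the messenger RNA share, 0 with pan-leucocyte genes (5 at an unadjusted p under 0.05), 2 without the trend and 2 with only 2 groups. Leaving out 1 library gave 1 to 3, with 2 without Saline 1 (Clec7a added), 3 without OVA 1 and 2 without OVA 3. Leaving out OVA 1 together with rescaling to the 75th percentile, chosen after seeing the data, gave 1, 0 (2 at an unadjusted p under 0.05) and 4 calls in the 3 comparisons.

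Signs turned for several genes. In OVA vs. Saline, Clec4a1 was −0.15 as deposited and 0.36, 0.28, 0.50 and 0.52 under the 4 scalings in the order above, and 0.53 without OVA 1 at the 75th percentile. Clec4a2 was 0.43, 0.35, 0.57 and 0.59, and 0.65 in the last setting. Clec4a3 was 0.09 and 0.07 under the messenger RNA share and pan-leucocyte genes, and 0.47 in the last setting, and Clec12a, called as deposited, was 0.05 and 0.07 under the same 2 scalings. Leaving out single libraries gave −0.48 to 1.13 for Clec7a, −0.40 to 0.03 for Clec4a1 and −0.25 to 0.16 for Clec4a2. In Herb vs. OVA, Clec10a was −0.34, −0.37, −0.42 and −0.55 under the scalings, −0.46 without OVA 1 at the 75th percentile and −0.09 to 0.15 with single libraries left out. In Herb vs. Saline, Clec4n was 0.04 with the messenger RNA share. Of the 10 genes most like Clec4d, 2 were among the 10 as deposited.

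The replicate numbers are shared by the groups, but same-numbered libraries did not deviate together (r = −0.009 to 0.095 over 9 pairs), so they were not treated as pairs. With the replicate block the calls were 3 in OVA vs. Saline, 3 in Herb vs. OVA and 0 in Herb vs. Saline (limma, 2 at an unadjusted p under 0.05), and Clec10a was −0.03 in Herb vs. OVA.

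Depth limits Clec5a, with 2 to 10 estimated fragments in a library, and Clec10a in Saline, with 4 to 21. The shift of the messenger RNA share cannot be told apart from the groups, and which scaling is right was not tested.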
